A study of Mus musculus with 23 samples.

Results

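Ligands of the EGF receptor family and the protease that releases them were followed in mouse co-cultures of pancreatic stellate cells (PSCs) and pancreatic tumour organoids. The set was chosen by name and holds 10 genes of the 35523 summed from the deposited tables: Areg, Ereg, Hbegf, Tgfa, Btc, Epgn, Egf, Nrg1, Nrg2 and Adam17. Stellate cells reside in the pancreas and take on a fibroblast state next to tumours, and tumour organoids are cancer cells that form small hollow or solid structures in a gel. Both were grown together in Matrigel, a basement membrane gel, for 3.5 days and separated by flow sorting before RNA-seq.

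The 23 libraries form 4 groups. PSC-fraction libraries came from Egfr wild type (WT) PSCs, named Rosa in the titles (n = 4), or from Egfr knockout (KO) PSCs (n = 8). Organoid-fraction libraries came from organoids grown with WT PSCs (n = 4) or with KO PSCs (n = 7). The organoid lines were T6-LOH, T12-LOH and T69A, and no label describes an edit of Egfr in them. PSCs descended from PSC4 (lines Rosa, A3 and B4) or PSC5 (lines Rosa, C5 and D4), and PSC5 lines were grown with T6-LOH only. The medium is labelled reduced/control without a record of which culture had which, and the labels do not say what the line codes stand for or how many clones they represent. They also do not say that libraries are separate cultures, so p-values measure the spread between these libraries, and the libraries of 1 PSC line are not separate lines. A culture is here 1 organoid line with 1 PSC line as named in the titles. The titles do not say that both fractions of a culture came from the same dish. In total 11 cultures had both fractions, and the organoid library of T69A with A3 was not analysed here.

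The EGF receptor family consists of EGFR, ERBB2, ERBB3 and ERBB4, receptor tyrosine kinases that pair up when ligand binds and signal through the ERK pathway and through PI3K. Amphiregulin (Areg), TGF-alpha (Tgfa), EGF (Egf) and epigen (Epgn) bind EGFR, epiregulin (Ereg), HB-EGF (Hbegf) and betacellulin (Btc) bind EGFR and ERBB4, and the neuregulins (Nrg1, Nrg2) bind ERBB3 and ERBB4. Most are made as membrane-anchored precursors, and ADAM17 is the protease that cuts several of them, Areg, Ereg, Tgfa and Hbegf among them, from the cell surface. In the mouse pancreas, EGFR signalling takes part in the early steps of tumour formation.

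All 9 ligands share 1 structural unit, the EGF-like module, whose 6 cysteines form the disulfide bonds of the receptor-binding fold. The translated main transcript of each ligand was searched for 6 cysteines with 7, 4 or 5, 10 to 13, 1 and 8 residues between them. This pattern matched 1 time in each, and EGF-like modules of other spacing were not counted. Of the ligands that differed between the fractions, Hbegf, Egf and Nrg2 are left out and the coding sequences of 5 modules are shown. They were read 5′ to 3′ from GENCODE M21 transcripts (build GRCm38), and capitals mark the cysteine codons.
Ereg (chromosome 5, residues 61 to 96): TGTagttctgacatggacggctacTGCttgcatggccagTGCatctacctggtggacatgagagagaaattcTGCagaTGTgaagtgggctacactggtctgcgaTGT
Areg (chromosome 5, residues 139 to 174): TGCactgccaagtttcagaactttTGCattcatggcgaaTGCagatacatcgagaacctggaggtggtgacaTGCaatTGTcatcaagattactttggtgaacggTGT
Tgfa (chromosome 6, residues 46 to 81): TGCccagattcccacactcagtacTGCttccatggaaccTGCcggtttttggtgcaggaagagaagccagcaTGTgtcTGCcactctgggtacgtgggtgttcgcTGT
Btc (chromosome 5, residues 69 to 104): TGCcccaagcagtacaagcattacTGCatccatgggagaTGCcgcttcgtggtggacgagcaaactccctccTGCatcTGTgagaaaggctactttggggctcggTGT
Nrg1 (chromosome 8, residues 182 to 221): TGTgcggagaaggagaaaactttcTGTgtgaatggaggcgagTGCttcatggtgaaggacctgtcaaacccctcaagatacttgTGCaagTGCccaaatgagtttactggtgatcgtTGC
Ereg, Areg, Tgfa and Btc had the same spacing of 7, 4, 10, 1 and 8 residues between successive cysteines, whereas Nrg1 had 7, 5, 13, 1 and 8. The translated modules of Ereg and Areg were identical at 12 of 36 aligned residues (33.3%) and those of Tgfa and Btc at 19 (52.8%). Over all 9 ligands the closest pair was Btc with Hbegf (55.6%), followed by Tgfa with Btc and then Nrg1 with Nrg2 (51.4%). The lowest identity, 30.6%, was shared by 3 pairs: Ereg with Nrg1, Tgfa with Nrg1 and Tgfa with Nrg2.

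Epgn, Ereg, Areg and Btc are consecutive protein-coding genes on chromosome 5 in the RefSeq annotation of GRCm38.p6. Ereg and Areg are neighbours there, and they went in opposite directions between the fractions. Promoter windows, 250 bases before to 50 bases after the start, were found for 6 of the 10 genes in the RefSeq table of GRCm38.p6. The Areg window is shown because Areg was called between T12-LOH and T6-LOH cultures in both fractions (chr5:91139349-91139648, plus strand), with the matched letters in capitals.
Areg promoter: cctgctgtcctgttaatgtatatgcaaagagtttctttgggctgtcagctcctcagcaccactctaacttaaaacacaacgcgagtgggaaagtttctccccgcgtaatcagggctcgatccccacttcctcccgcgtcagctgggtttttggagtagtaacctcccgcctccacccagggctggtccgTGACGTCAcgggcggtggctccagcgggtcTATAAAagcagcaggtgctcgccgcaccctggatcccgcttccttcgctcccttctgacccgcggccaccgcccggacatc
It held TGACGTCA, the cyclic AMP response element, with its first base 61 bases before the start, and the core promoter motif TATAAA with its first base 31 bases before it. Searched on both strands, TGACGTCA occurs in 1.79% and TATAAA in 13.6% of the 32851 promoter windows. Among the other 5 genes only the Epgn window held TATAAA, and none held TGACGTCA. TGANTCA (AP-1), found in 7.81% of all windows, and GGAATG (TEAD), found in 14.7%, were in none of the 6. These letters do not overlap each other in the Areg window and are a description only.

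Libraries held between 21823084 and 34828131 estimated counts. Levels are in CPM, counts scaled to a common library size with edgeR's TMM factors. The defining markers went with the sort labels. Summed over 12 epithelial markers such as Epcam, Krt8 and Cdh1, organoid libraries held 15200 to 21150 CPM and PSC libraries 36.0 to 169 CPM, and 12 fibroblast markers such as Col1a1, Pdgfrb and Dcn summed to 5071 to 15830 CPM in PSC libraries and 1.52 to 21.77 CPM in organoid libraries. Egfr, the targeted gene, was below the WT library of its own co-culture in 8 of 8 KO PSC libraries, with a mean log2 difference of -1.25 (exact permutation test within co-cultures, 2-sided, p = 0.0247 over 81 assignments, smallest possible 0.0123). The PSC4 lines recur in several co-cultures, and the test treated their libraries as separate. Its p therefore does not measure the spread between lines. Leaving out any 1 of the 4 co-cultures raised the p to 0.0741, with fewer assignments possible. The mean log2 difference of Egfr then ran from -1.354 to -1.077. The remaining level ran from 57.3 CPM (20.6% of control) in A3 with T6-LOH to 344.6 CPM (82.2% of control) in the library labelled KO D4, which lay inside the WT range of 277.7 to 419.5 CPM. A count does not show whether the product is intact. Of the other lists, 4 mesothelial markers summed to 761.7 to 1661 CPM in organoid libraries, almost all of it Msln (1158 CPM on average). In PSC libraries they summed to 4.70 to 39.3 CPM, with Msln at 11.2 and Wt1 at 5.86 CPM on average. In any library 7 immune markers summed to at most 32.1 CPM, 7 acinar and endocrine markers to at most 17.8, 5 endothelial markers to at most 6.90 and 5 neural and muscle markers to at most 11.3. Their part in the results was not tested.

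Ereg was the most abundant ligand transcript of the PSCs and Hbegf and Areg those of the organoids (per-length levels in TPM, the length-corrected unit that the authors deposited). In the 12 PSC libraries Ereg stood at 179.7 ± 68.7 TPM (SD), with 77.0 at the lowest, 184.3 at the median and 308.7 at the highest. It was the top ligand in 12 of 12 PSC libraries and made up 41.8 to 83.3% of the summed TPM of the 9 ligands. Hbegf followed at 52.0 ± 9.87 TPM and Nrg1 at 28.0 ± 10.7, each above the next gene in 12 of 12 libraries. Areg came next at 5.01 ± 2.35 TPM and was above Btc in all 12. Btc (1.54 ± 1.17), Nrg2 (1.19 ± 0.632) and Egf (0.829 ± 0.227) were not separated, since Btc was above Nrg2 in 7 and Nrg2 above Egf in 8 of 12 libraries. Tgfa (0.622 ± 0.347 TPM) and Epgn (0.321 ± 0.166 TPM) closed the order.

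In the 11 organoid libraries Hbegf stood at 213.8 ± 31.5 TPM and Areg at 192.3 ± 62.0. Their order followed the organoid line. Hbegf was the top ligand in the 8 T6-LOH and T69A libraries, at 39.1 to 49.0% of the summed ligand TPM, and Areg in the 3 T12-LOH libraries, at 41.2 to 45.0%. Btc (55.0 ± 10.5 TPM) was below both and above Tgfa in 11 of 11 libraries. Tgfa (37.2 ± 2.55 TPM) was above Ereg (33.7 ± 15.9) in 8 of 11, the exceptions being the 3 T12-LOH libraries. Nrg1, Nrg2, Egf and Epgn had means of 1.34 TPM or less. The 9 ligands summed to 426.4 to 672 TPM in organoids and to 175.1 to 370.7 TPM in PSCs, ranges that did not overlap.

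**Figure D1:**
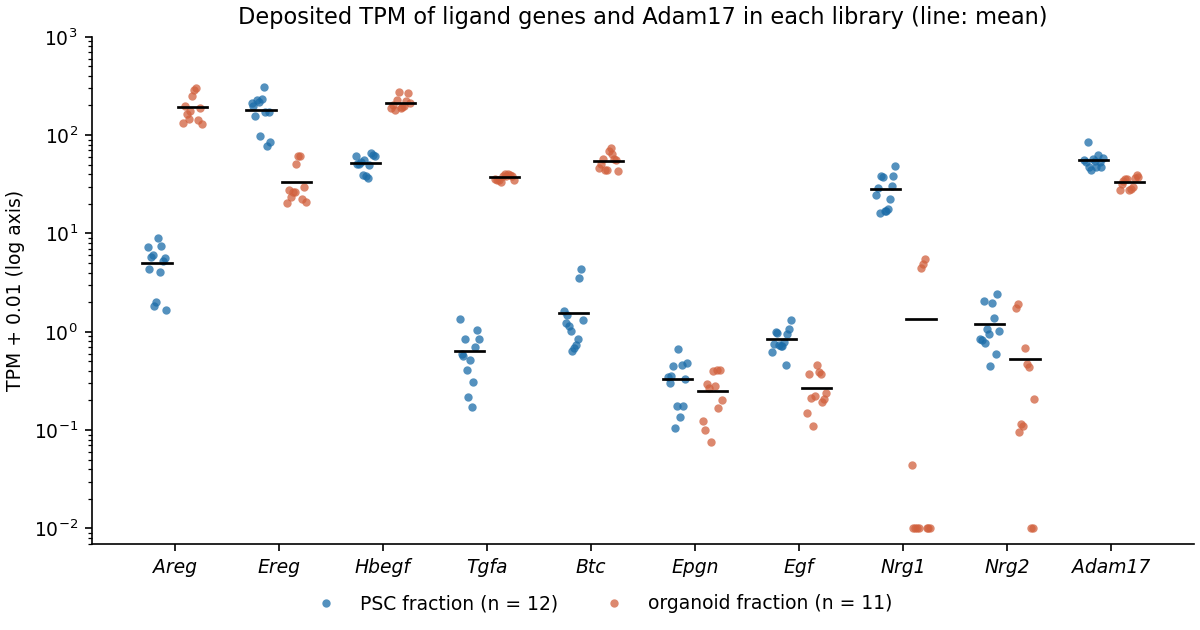
TPM of the 9 ligand genes and Adam17 in each library, on a log axis with 0.01 added so that zeros show, with PSC-fraction libraries in blue (n = 12), organoid-fraction libraries in orange (n = 11) and a black line at each mean. Ereg and Nrg1 lie higher in the PSC fraction, Areg, Hbegf, Tgfa and Btc lie higher in the organoid fraction, and 7 organoid libraries sit at 0 for Nrg1.

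The question of which cells make which ligand was addressed by comparing both fractions of the 11 cultures (edgeR's quasi-likelihood test with culture as a block, Benjamini-Hochberg adjusted over 16227 genes). The test called 9 of the 10 genes, 5 higher and 4 lower in the PSC fraction, against 73.9% of all genes tested (36.3% higher, 37.6% lower). The fractions differ in most genes, so the count itself is near what all genes show. In bulk RNA, fewer cells of a type and less RNA per cell cannot be told apart. Ranges, medians, means and folds of means below are over all 12 PSC and 11 organoid libraries. The log2 differences, SE and p are from the 22 libraries of the 11 cultures.

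The 4 ligands higher in organoids were Areg, Tgfa, Btc and Hbegf, in 11 of 11 cultures each. Tgfa, an EGFR ligand first described in transformed cells, had 97.5, 111.7 and 117.7 CPM at the lowest, median and highest organoid library and 0.430, 1.43 and 3.43 CPM in PSC libraries. The groups did not overlap, and the mean was 70.4-fold higher in organoids (log2 PSC minus organoid -6.31, SE 0.30, adjusted p = 5.83e-10). Areg had 87.9, 122.4 and 204.9 CPM in organoids and 0.936, 3.06 and 5.47 CPM in PSCs (log2 -5.60, SE 0.24, adjusted p = 2.34e-10), also without overlap. Btc, an ERBB ligand named for the beta-cell tumour line it came from, had 71.1, 92.6 and 115.5 CPM in organoids and 0.888, 1.73 and 6.12 CPM in PSCs (log2 -5.62, SE 0.30, adjusted p = 1.66e-09).

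Hbegf, a heparin-binding ligand, differed less than these 3. It had 265.9, 310.8 and 412.1 CPM at the lowest, median and highest organoid library and 48.5, 65.2 and 79.9 CPM in PSC libraries. The mean was 4.90-fold higher in organoids (log2 -2.31, SE 0.09, adjusted p = 6.39e-11), and PSCs still held it as their second ligand.

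Epithelial marker transcripts were present in the PSC libraries at a low level. The median epithelial marker stood in a PSC library at 0.0536 to 0.692% of its level in the organoid library of the same culture. Areg stood at 0.937 to 4.28%, Tgfa at 0.390 to 3.07%, Btc at 0.931 to 6.61% and Hbegf at 14.5 to 25.5%. Each of the 4 was above the median marker in 11 of 11 cultures. The marker with the highest percentage, Muc1 in 10 cultures and Krt19 in 1, stood at 1.12 to 2.16%. Hbegf was above it in 11 of 11 cultures, Areg in 7, Btc in 6 and Tgfa in 4, so the low PSC levels of Areg, Btc and Tgfa were not above every epithelial marker. The part of organoid RNA in these low levels was not tested.

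Ereg went the other way, with 157, 391.9 and 678.1 CPM at the lowest, median and highest PSC library and 51.4, 66.4 and 150.4 CPM in organoids. It was higher in PSCs in 11 of 11 cultures, the ranges did not overlap, and the mean was 4.61-fold higher (log2 2.15, SE 0.18, adjusted p = 1.49e-07). In each organoid library Ereg stood at 11.8 to 42.2% of its level in the PSC library of the same culture, while the median fibroblast marker stood at 0 to 0.129%. The highest fibroblast marker stood at 0.0965 to 3.96%, and Ereg was above it in 11 of 11 cultures.

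Nrg1, a ligand of ERBB3 and ERBB4, had 32.2, 53.9 and 94.0 CPM at the lowest, median and highest PSC library. Among organoid libraries it had 0 estimated counts in 7, 3 counts in T69A library 2, and 9.05, 11.1 and 9.35 CPM in T12-LOH libraries 10, 11 and 12. The fractions did not overlap (adjusted p = 0.000302, fitted log2 7.35, SE 1.37, a size that depends on the zeros and is no bound). Erbb3, the receptor for neuregulins, went the opposite way, at 2.94 CPM on average in PSCs and 243.5 in organoids (log2 -6.51, SE 0.20, adjusted p = 1.89e-11).

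The remaining ligands were scarce in both fractions. Egf had 0.850 to 2.12 CPM in PSCs and 0.136 to 0.838 in organoids, higher in PSCs in 11 of 11 cultures (log2 1.78, SE 0.30, adjusted p = 0.000107). Nrg2 had 0.694 to 1.95 CPM in PSCs and 0 to 2.99 in organoids, higher in PSCs in 9 of 11 cultures, all but both T69A cultures (log2 1.74, SE 0.64, adjusted p = 0.0261). The Nrg2 call was lost in the cultures with WT PSCs alone and without the culture of T6-LOH with A3 (adjusted p up to 0.357). Epgn had 0.0427 to 0.429 CPM over all 23 libraries, at most 11 estimated counts in any, and its difference between fractions was 0.14 (SE 0.35, adjusted p = 0.735).

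Adam17, the sheddase, was higher in PSCs in 11 of 11 cultures by a small amount. It had 106.1, 129.7 and 198.5 CPM at the lowest, median and highest PSC library and 73.4, 99.5 and 110.1 CPM in organoids. The ranges overlapped at 106.1 to 110.1 CPM (log2 0.46, SE 0.10, adjusted p = 0.000684). This was the smallest difference among the 9 genes called.

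**Figure D2:**
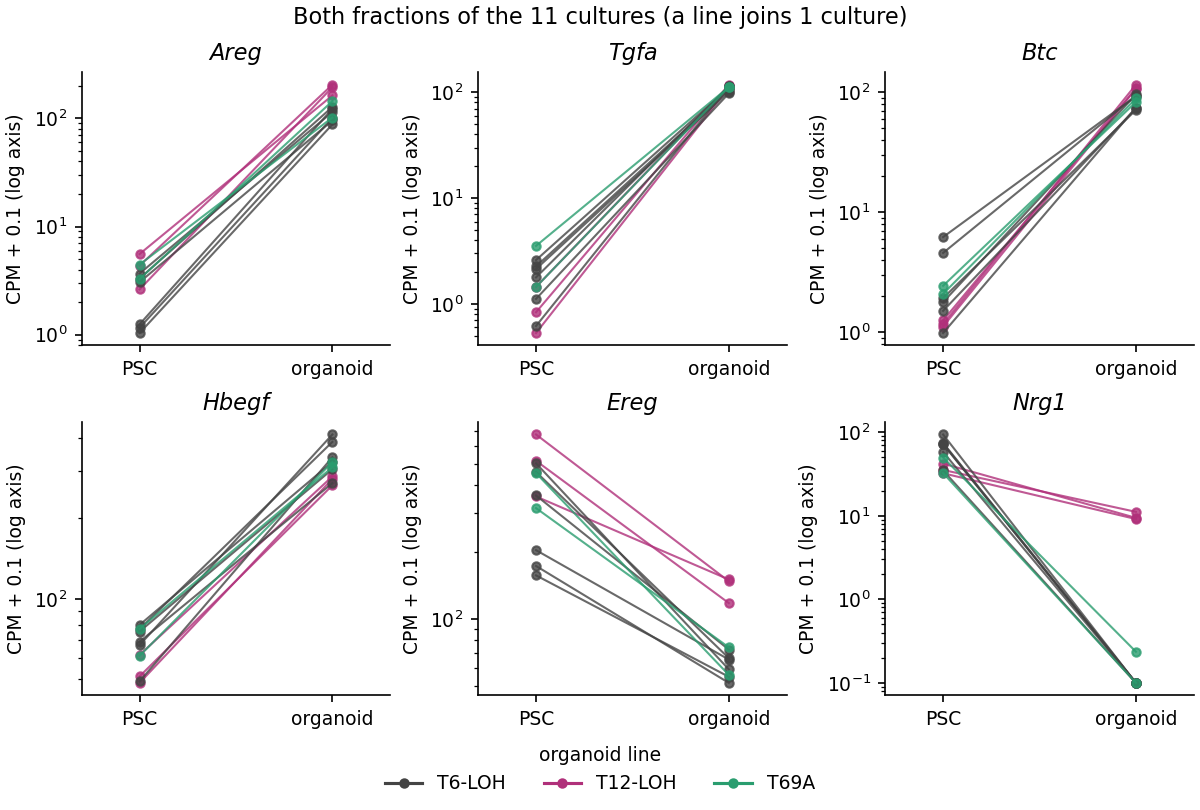
CPM of 6 ligands in the PSC and organoid fractions of the 11 cultures, on log axes with 0.1 added, a line joining the libraries of 1 culture and colours marking the organoid line. Areg, Tgfa, Btc and Hbegf rise and Ereg and Nrg1 fall from PSC to organoid in all 11 lines, and the T12-LOH cultures keep Nrg1 at 9.05 to 11.1 CPM in organoids.

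The other genes of the pathway were read from lists of receptors, sheddase partners, restrainers, relay proteins and ERK-responsive genes. Their counts are to be read against the 73.9% of all genes called between the fractions (36.3% higher, 37.6% lower). Of the receptors, 3 of 4 were tested and 3 called: Egfr was higher in PSCs (211.8 against 99.5 CPM, log2 0.95, SE 0.22, adjusted p = 0.00131), although 8 of the 12 PSC libraries were KO, and Erbb2 (58.1 against 137.1 CPM, log2 -1.24) and Erbb3 were lower. Of 14 genes of the shedding machinery, 6 were higher and 5 lower in PSCs (median log2 0.02, all genes -0.05). Those with the smallest p were the metalloprotease Adam19, at 137.6 CPM in PSCs and 0.0238 in organoids, and the inhibitors Timp1 (593.6 against 8.23 CPM) and Timp3 (433.6 against 4.97 CPM). TIMP3 is the natural inhibitor of ADAM17.

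The counts of the further lists are also to be read against 73.9% of all genes. Of 9 receptor restrainers 5 were higher and 1 lower in PSCs (median log2 0.69, all genes -0.05), led by Socs5 (log2 2.16), Lrig2 (1.46) and Lrig1 (1.495). LRIG1 promotes degradation of EGF receptors. Of 17 ERK-responsive genes 5 were higher and 6 lower in PSCs, and the 3 with the smallest p, Dusp5 (log2 -2.42), Fos (-1.64) and Dusp6 (-1.70), were lower. Of 17 relay genes 9 were higher and 6 lower, led by Pik3r1 (1.57), Braf (1.31) and Ptpn11 (0.82). Nrg4, a further ERBB4 ligand, stood at 0.0252 CPM in PSCs and 0.597 in organoids (log2 -4.06, SE 0.83, adjusted p = 0.000598), and Nrg3 was not tested.

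KO against WT PSCs was the study's first comparison (12 PSC libraries, the same test, with each co-culture of 1 organoid line and 1 PSC parent as a block). Of the 10 genes, 9 passed the filter on low counts, all but Epgn, and 0 were called against 0.0949% of the 14756 genes tested (0.0271% higher, 0.0678% lower). At an unadjusted p under 0.05 the fit held 1992 genes, Areg, Tgfa and Nrg2 among them, and DESeq2 called 613 genes and none of the 9. Of the 3 receptors tested, 14 shedding genes, 9 restrainers, 17 relay and 17 ERK-responsive genes, 0 were called. Egfr itself had a log2 difference of -1.15 (SE 0.34, adjusted p = 0.225) in this fit and was called by DESeq2 (adjusted p = 0.0295). The ERK-responsive genes with the smallest p were Spry1 (log2 1.09, SE 0.35, adjusted p = 0.256) and Spry4 (0.63, SE 0.22, adjusted p = 0.285), both feedback inhibitors of receptor tyrosine kinase signalling.

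Areg in WT PSC4 cells stood at 3.58 CPM beside T6-LOH, 5.47 beside T12-LOH and 4.35 beside T69A, and at 2.96 CPM in WT PSC5 cells. The KO libraries ran from 0.936 to 4.25 CPM. Areg was below its control in 7 of 8 KO libraries, all but C5, and the groups overlapped. The fitted log2 difference was -0.90 (SE 0.33, adjusted p = 0.299). Over the 19 other settings it stayed between -1.14 and -0.61, with adjusted p of 0.136 to 1.00.

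Tgfa stood at 2.16, 1.35, 3.43 and 1.68 CPM in the same 4 WT libraries and at 0.430 to 2.495 CPM in the KO libraries. It was below its control in 6 of 8, that is in all libraries of A3 and B4 and in neither PSC5 line (log2 -0.96, SE 0.34, adjusted p = 0.291). Nrg2 was the reverse, at 0.742, 0.694, 1.29 and 0.840 CPM in WT and 1.07 to 1.95 CPM in KO libraries. It was above its control in 7 of 8 libraries, all but A3 with T69A (log2 0.80, SE 0.25, adjusted p = 0.249). These 3 genes rest on few reads, with 17 to 152 estimated counts in the WT libraries.

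The 3 abundant ligands of the PSCs had smaller fitted differences. Ereg stood at 502.8, 515.9, 454.1 and 157 CPM in WT libraries and at 173.1 to 678.1 in KO libraries, above its control in 3 of 8 (log2 -0.07, SE 0.32, adjusted p = 0.937). Over single KO libraries its log2 difference ran from -1.299 (B4 with T6-LOH) to 1.195 (C5). Ereg was below its control in all B4 libraries, above it in C5 and D4, and went both ways in A3. Hbegf was below its control in 7 of 8 KO libraries by small amounts (log2 -0.14, SE 0.10, adjusted p = 0.553). Nrg1 was above its control in 6 of 8 (log2 0.04, SE 0.25), Btc in 3 of 8 (-0.25, SE 0.31) and Egf in 4 of 8 (0.04, SE 0.23). Adam17 was above its control in 4 of 8, with a log2 difference of 0.05 (SE 0.12, adjusted p = 0.878).

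In organoids grown with KO instead of WT PSCs, the study's second comparison, 0 of the 10 genes were called against 9.16% of the 14750 genes tested (3.82% higher, 5.34% lower). The fit had 4090 genes at an unadjusted p under 0.05, and 1 of the 10, Ereg, was among them. Ereg stood at 59.1 (T6-LOH), 117.7 (T12-LOH), 55.8 (T69A) and 54.7 CPM (PSC5) with WT PSCs and at 51.4 to 150.4 CPM with KO PSCs. It was above its control in 6 of 7 libraries, all but D4 (log2 0.26, SE 0.08, adjusted p = 0.0706). DESeq2 called it, as did the fit without library 16, which is the D4 library, and the lowest adjusted p was 0.0109.

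Hbegf and Adam17 were also above their control in 6 of 7 organoid libraries, by log2 0.18 (SE 0.09, adjusted p = 0.226) and 0.09 (SE 0.05, adjusted p = 0.217). Areg was above in 5 of 7 (0.21, SE 0.12), Tgfa in 3 (-0.03, SE 0.05) and Btc in 3 (-0.12, SE 0.09). Of the lists, 2 of 13 shedding genes were lower with KO PSCs, Furin (log2 -0.27, SE 0.06, adjusted p = 0.0208), a proprotein convertase, and Frmd8 (-0.19, SE 0.04, adjusted p = 0.0247), a partner of the iRhoms that carry ADAM17. Of 17 relay genes 1 was higher and 1, Map2k1, lower (-0.32), and of 17 ERK-responsive genes 1, Ier3, was lower (-0.26). These counts are to be read against the 9.16% of all genes called.

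The KO difference in PSCs was set against that in organoids in 1 fit of all 23 libraries. It called 0 of the 10 genes against 0.555% of 16209 (0.352% higher, 0.204% lower), and 2517 genes had an unadjusted p under 0.05, Areg, Hbegf and Tgfa among them. The difference of largest size among the 10 was that of Areg, whose KO effect in PSCs was 1.05 below that in organoids on the log2 scale (interaction -1.05, SE 0.32, adjusted p = 0.147). DESeq2 and the fit without PSC library 27 called Areg, and the fit without PSC library 26 called Tgfa (log2 -0.84, SE 0.30, adjusted p = 0.201 with all libraries). This fit did not pair both libraries of a culture. With culture as a block in the 11 cultures with both fractions, an alternative chosen after seeing the data, 30 genes were called in place of 90, 0 of the 10 among them (Areg -1.10, SE 0.23, adjusted p = 0.0901).

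**Figure D3:**
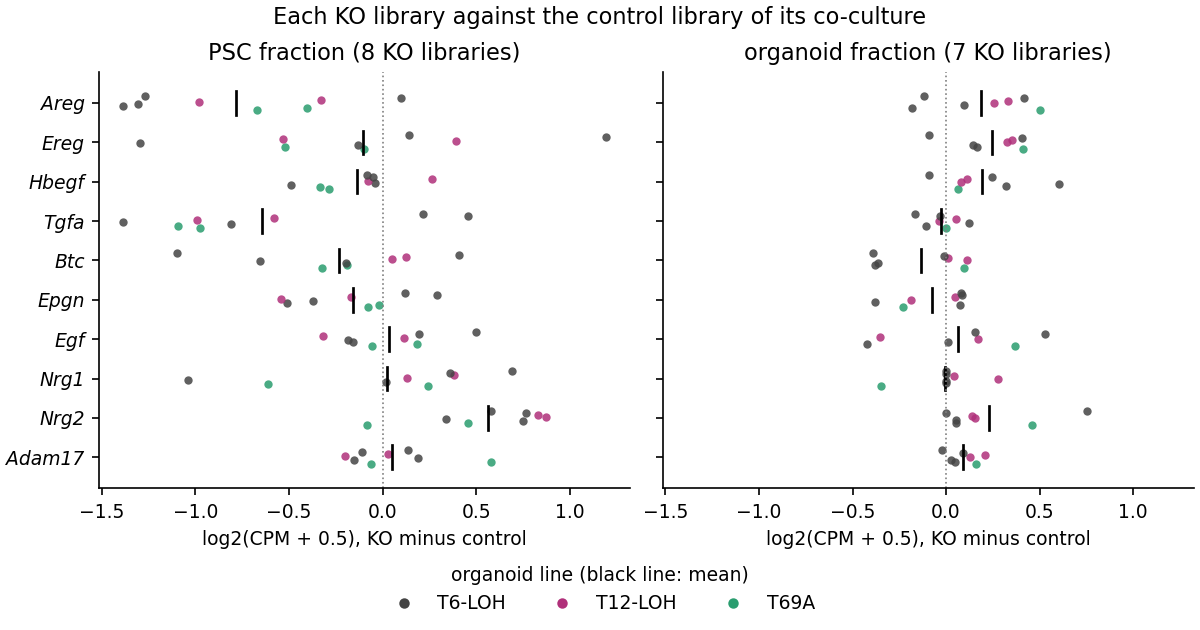
Difference in log2(CPM + 0.5) between each KO library and the WT library of its own co-culture for the 10 genes, in the PSC fraction (8 libraries) and the organoid fraction (7), with colours for the organoid line and a black line at the mean. Areg lies left of 0 in 7 of 8 and Nrg2 right of 0 in 7 of 8 PSC libraries, and Ereg lies right of 0 in 6 of 7 organoid libraries.

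Levels were also compared between the KO lines A3 and B4. With the organoid line as a block, B4 against A3 (3 libraries each) called 2 of 9 genes, Ereg lower and Adam17 higher, against 44.2% of the 14041 genes tested (21.9% higher, 22.3% lower). Ereg stood at 459.7 (T6-LOH), 678.1 (T12-LOH) and 423.7 CPM (T69A) in A3 and at 204, 356.3 and 315.7 CPM in B4. All A3 libraries were above all B4 libraries (log2 -0.87, SE 0.15, adjusted p = 0.0063), and the call held in 10 of 10 alternatives. The PSC4 Rosa line, at 490.9 ± 32.6 CPM (SD, n = 3), lay within the A3 range, whose mean was 520.5 ± 137.7.

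Adam17 stood at 106.1, 121.6 and 127 CPM in A3 and at 134.8, 142.6 and 198.5 CPM in B4, without overlap (log2 0.38, SE 0.09, adjusted p = 0.0183). Leaving out library 18, 19, 21 or 22 ended this call, with adjusted p up to 0.0867. Egfr itself was higher in B4 (log2 1.02, SE 0.06, adjusted p = 0.000366), with 115.9 to 214.2 CPM against 57.3 to 100.4. Against 44.2% of all genes, 8 of 17 ERK-responsive genes were called, 7 higher and 1 lower in B4 (median log2 0.30, all genes 0.01), among them Dusp4 (0.95), Phlda1 (0.86) and Spred2 (0.56). Of 14 shedding genes 4 were higher and 5 lower, led by Adam15 (-0.82) and Adam9 (-0.84) below and Adam19 (0.62) above. Nrg1 was lower in B4 by 0.59 on the fitted scale (log2 -0.59, SE 0.30, adjusted p = 0.200), which DESeq2 and the fits without library 24 or 25 called, and Hbegf (0.22, SE 0.11, adjusted p = 0.151) was called without library 18 or 19.

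In T6-LOH cultures PSC5 lines were compared with PSC4 lines, and 0 of 9 genes were called against 0.014% of 14236 (0.014% higher, 0% lower), and 1797 genes had an unadjusted p under 0.05. DESeq2 called 606 genes there and none of the 9. Btc, the gene of the 9 under that unadjusted level, stood at 4.49, 6.12 and 1.83 CPM in PSC5 Rosa, C5 and D4 and at 1.69, 1.41 and 0.888 CPM in PSC4 Rosa, A3 and B4, without overlap (log2 1.66, SE 0.54, adjusted p = 0.344). Ereg stood at 157, 360.1 and 173.1 CPM in PSC5 lines and 502.8, 459.7 and 204 in PSC4 lines (log2 -0.77, SE 0.49, adjusted p = 0.547).

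**Figure D4:**
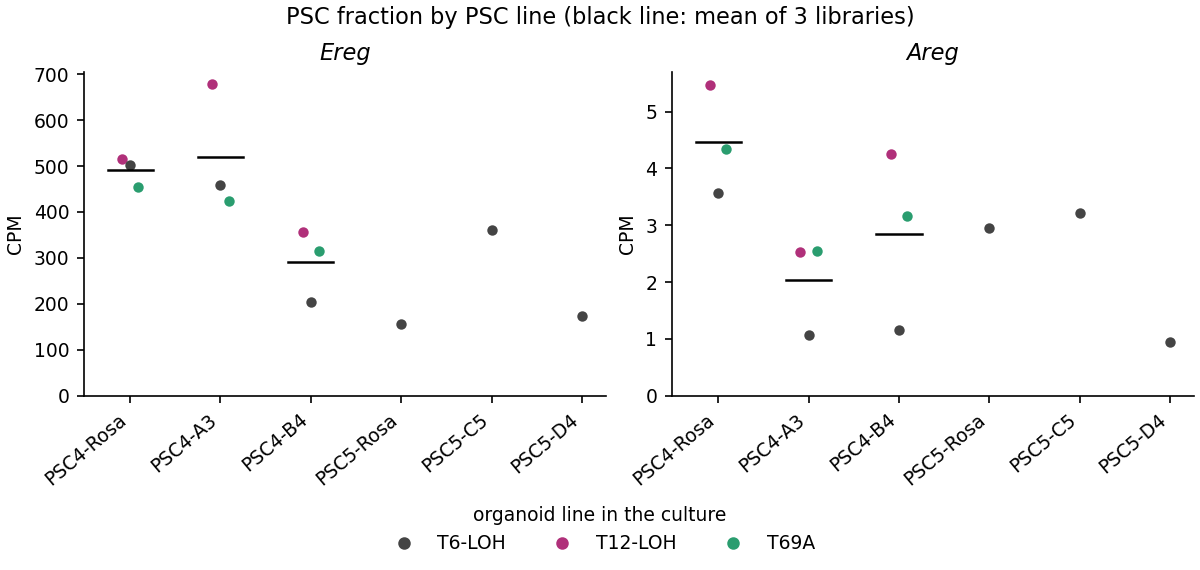
CPM of Ereg and Areg in the 12 PSC libraries by PSC line, with colours for the organoid line in the culture and black lines at the means of lines with 3 libraries. Ereg is lower in all B4 than in all A3 libraries, and Areg is lowest with T6-LOH in each of the 3 PSC4 lines.

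Ligand levels were also compared between organoid lines. In cultures with PSC4 lines, T12-LOH against T6-LOH (3 libraries each, PSC line as a block) called 7 of 10 genes, 5 higher and 2 lower, against 62% of the 14541 genes tested (31.2% higher, 30.8% lower). This count is near the share of all genes. Nrg1 stood out by level. The 3 T12-LOH libraries held 811 Nrg1 counts and the 3 T6-LOH libraries with PSC4 lines 0, as did the 3 with PSC5 lines. Against a floor of 3 counts over the group, T12-LOH was at least 296-fold higher (adjusted p = 3.35e-05). The 2 T69A libraries held 3 counts, a ratio of 149.8 with a counting interval of 51.3 to 727 (95%, exact Poisson on the 3 counts, counting error only).

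The Nrg1 level in T12-LOH organoids was 22.2 to 31.3% of that in the PSC library of the same culture, while the median fibroblast marker stood at 0.0252 to 0.0899% and the highest at 0.789 to 3.96% there. The main transcript, Nrg1-203, held 52.5% of the Nrg1 counts in organoids and 55.6% in PSCs. Nrg4 was higher in T12-LOH too (log2 4.34, SE 0.52, adjusted p = 5.26e-05), and Erbb3 (log2 -0.28, adjusted p = 0.0274) and Erbb2 (-0.67, adjusted p = 3.31e-05) were lower.

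Ereg was higher in T12-LOH, at 117.7, 147.6 and 150.4 CPM against 59.1, 66.4 and 65.5 CPM in T6-LOH, without overlap (log2 1.11, SE 0.07, adjusted p = 5.06e-07). Areg stood at 162.8, 194.1 and 204.9 CPM against 114.5, 101 and 122.4 (log2 0.73, SE 0.09, adjusted p = 0.000104). Btc stood at 106.8, 115.5 and 107.5 CPM against 95.8, 73.4 and 74.3 (log2 0.44, SE 0.10, adjusted p = 0.00418). These 3 neighbours on chromosome 5 were each called higher in T12-LOH, as were 31.2% of all genes tested. Epgn, the remaining gene of that cluster, held 2 to 11 estimated counts in these libraries (log2 0.92, SE 0.60, adjusted p = 0.205).

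Nrg2 was higher in T12-LOH (0.615 to 0.742 against 0.151 to 0.177 CPM, log2 2.02, SE 0.39, adjusted p = 0.00126). Adam17 was lower, at 73.4, 80.1 and 84.8 CPM against 99.5, 103 and 101 (log2 -0.35, SE 0.06, adjusted p = 0.000602). Hbegf was lower at 265.9, 281 and 287.2 against 271, 338.5 and 412.1 CPM, with overlap (log2 -0.28, SE 0.10, adjusted p = 0.0447), a call that 6 of 13 alternatives ended. Tgfa differed by log2 0.11 (SE 0.06, adjusted p = 0.136).

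Other genes of the pathway were called at shares to be read against the 62% of all genes: 8 of 13 shedding genes, 8 of 9 restrainers, 14 of 17 relay and 11 of 17 ERK-responsive genes. Of 13 shedding genes tested 6 were higher and 2 lower in T12-LOH than in T6-LOH (median log2 0.29, all genes 0.01), led by the metalloproteases Adam10 (0.91), Adam8 (1.57) and Adam9 (0.68). Of 9 restrainers 6 were higher and 2 lower (median 0.37), led by Errfi1 (0.95), an inhibitor of the EGFR kinase, Ptpn1 (-0.60) and Rnf41 (0.60). Of 17 relay genes 9 were higher and 5 lower, Map2k1 (0.89) and Shc1 (0.63) among the higher. Of 17 ERK-responsive genes 6 were higher and 5 lower, a split without a common direction, with Spry4 (0.95), Spry2 (-0.67) and Ier3 (0.83) first.

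T69A against T6-LOH called 1 of 10 genes, Nrg2, against 51.3% of all genes tested (25.3% higher, 26% lower). Nrg2 stood at 2.04 and 2.99 CPM in the 2 T69A libraries (45 and 70 estimated counts) and at 0.151 to 0.177 CPM (5 counts each) in T6-LOH (log2 3.89, SE 0.41, adjusted p = 4.34e-05). The T69A organoids were the libraries in which Nrg2 exceeded the level of the PSCs beside them, at 1.29 and 1.95 CPM. Areg, Ereg, Hbegf, Tgfa and Btc differed from T6-LOH by -0.08 to 0.09 on the log2 scale, with SE of 0.07 to 0.12, and Areg, Hbegf and Btc were called without library 6. Nrg1, with 3 counts in T69A, was called without library 4, 10 or 12. Egfr was higher in T69A (log2 0.63, SE 0.08, adjusted p = 9e-05). Against 51.3% of all genes, of 13 shedding genes 8 were higher and 3 lower in T69A, led by Timp3 (2.89), and of 17 ERK-responsive genes 6 were higher and 7 lower, led by Phlda1 (0.88) and Dusp5 (0.82).

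**Figure D5:**
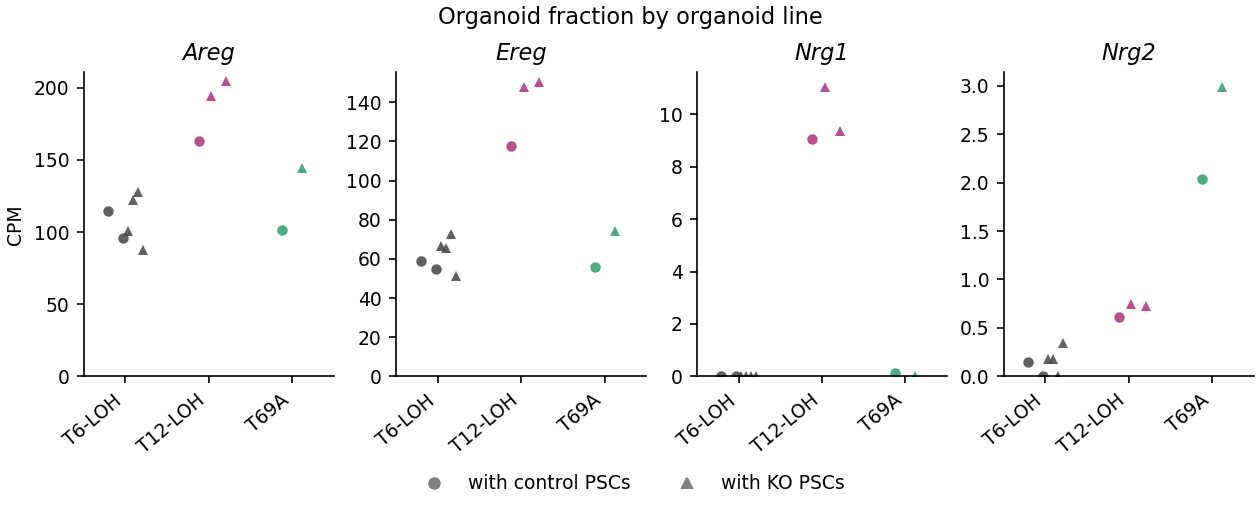
CPM of Areg, Ereg, Nrg1 and Nrg2 in the 11 organoid libraries by organoid line, circles for cultures with control (WT) PSCs and triangles for cultures with KO PSCs. The 3 T12-LOH libraries are the highest for Areg, Ereg and Nrg1, and the 2 T69A libraries are the highest for Nrg2.

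Whether PSC levels differ with the organoid line beside them was tested in the 9 PSC libraries of PSC4 lines, with PSC line as a block. With T12-LOH against T6-LOH 1 of 9 genes was called, Areg, against 17.3% of 14446 genes (8.3% higher, 9.03% lower). Areg stood at 5.47, 2.52 and 4.25 CPM with T12-LOH in Rosa, A3 and B4 and at 3.58, 1.06 and 1.15 CPM with T6-LOH, higher with T12-LOH in 3 of 3 lines although the groups overlapped (log2 1.21, SE 0.28, adjusted p = 0.0241). The call was lost without the block and without library 21, 22, 24 or 25, with adjusted p up to 0.513. The median epithelial marker stood at 0.0944 to 0.254% of the organoid level in these T12-LOH cultures and at 0.139 to 0.208% with T6-LOH.

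Ereg in PSC4 lines was higher with T12-LOH than with T6-LOH in 3 of 3 lines (log2 0.49, SE 0.18, adjusted p = 0.110) and Nrg1 lower in 2 of 3 (-0.60, SE 0.30, adjusted p = 0.232). DESeq2 called Ereg, and the fit without library 25 called Nrg1. With T69A against T6-LOH 0 of 9 genes were called against 4.11% (2.71% higher, 1.4% lower), and 3656 genes had an unadjusted p under 0.05, Areg, Tgfa and Adam17 among them. DESeq2 called 1124 genes and none of the 9. Areg differed by log2 0.91 (SE 0.28, adjusted p = 0.1002) and was higher with T69A in 3 of 3 lines, where the epithelial marker level was 0.668 and 0.692% in the 2 cultures with both fractions. Its part in the result was not tested.

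Among the other pathway genes of PSC4 lines, calls with T12-LOH against T6-LOH are to be read against 17.3% of all genes. They were 6 of 14 shedding genes (2 higher, 4 lower) and 7 of 17 ERK-responsive genes (3 higher, 4 lower). Of 9 restrainers 1 was higher and 3 lower, and of 17 relay genes 2 were higher and 1 lower. Rhbdf2, which encodes an iRhom that escorts ADAM17 to the cell surface, was higher (log2 0.71, SE 0.11, adjusted p = 0.00556), and Adam12 was lower (-1.75, SE 0.24, adjusted p = 0.00752). Fosl1 (0.91), Dusp4 (-0.65) and Ier3 (0.71) were first among the ERK-responsive genes. With T69A against T6-LOH, 1 of 14 shedding genes (Frmd8, 0.25), 1 of 9 restrainers (Errfi1, 0.38) and 2 of 17 ERK-responsive genes (Fosl1, 0.40, and Dusp4, -0.32) were called. Of 17 relay genes 1 was higher and 1 lower, and the share called over all genes was 4.11%.

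For the 2 most variable members of each fraction among those with a mean of at least 1 CPM, the genes of most similar level across libraries were named as a description. In PSCs, over 12 libraries and 11211 genes, Areg was nearest to Siah2 (Pearson r = 0.95), Nampt (0.93) and Il6 (0.92), and Btc to Trafd1 (0.95), Shisa5 (0.93) and Ddx58 (0.92). In organoids, over 11 libraries, Nrg1 was nearest to Rdx, Ppib and Ccdc50 (r of 0.99 each) and Ereg to Mtmr2, Aasdhppt and Vbp1 (0.98 each). The points share organoid lines and PSC lines, so these values include every difference between the lines. Il6, which encodes an inflammatory cytokine, ran from 25.5 to 221.1 CPM in PSCs.

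Areg and Ereg were each counted on 1 transcript, Areg-201 and Ereg-201, in both fractions. Nrg1 was spread over several: Nrg1-203 held 55.6% of its counts in PSCs and 52.5% in organoids, and Nrg1-206 18.1 and 8.80%. Nrg1-213 held 8.39 and 10.7%, and Nrg1-214, annotated as a target of nonsense-mediated decay, 10.8 and 16.5%. Egf was mostly divided between Egf-202 (40.9% in PSCs, 41.2% in organoids) and Egf-209 (31.7 and 41.6%). Egf-204, annotated as a target of nonsense-mediated decay, held 15.6 and 8.22%. Over single PSC libraries Egf-202 ran from 0 to 87.3% and Egf-209 from 0 to 75.7%. Epgn was divided between Epgn-201 (86.9 and 90.0%) and Epgn-202 (13.1 and 10.1%). These shares are estimates of the counting model. The organoid shares of Nrg1 come almost wholly from the 3 T12-LOH libraries.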

How the data were processed

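RNA-seq of sorted PSC and organoid fractions was available for 23 libraries. Salmon 1.9.0 and the mouse build GRCm39 (mm39) are named in the submitters' processing notes. The deposited tables list, per transcript, estimated counts (expected counts, NumReads) and TPM as the authors made them, with effective lengths. For strandedness and the transcript annotation the sources used here give nothing. Transcript IDs were matched to GENCODE M21 for gene names (115973 of 117135 transcripts), and estimated counts and TPM were summed to 35523 genes. Unmatched transcripts held 0.364 to 0.443% of counts.

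Summed counts were rounded and tested with edgeR 4.0.16 (TMM, filterByExpr with the design, robust quasi-likelihood F test, R 4.3.3), p-values were adjusted by Benjamini-Hochberg over all genes tested in a comparison, and genes with an adjusted p below 0.05 were called. SE is the log2 fold change divided by the root of F. Displayed CPM use TMM factors over all 23 libraries, a pseudocount of 0.5 enters log2 CPM, and levels are compared between genes in TPM only. Code was tested on simulated data. No 2 libraries agreed within sampling noise (lowest chi-square per degree of freedom 10.2), so all were kept. The 10 genes, the pathway lists and the markers were chosen with earlier results of these data known, and other genes are named by a rule: up to 3 per list with the smallest p past the threshold, otherwise up to 2 as values, and the 3 with the highest Pearson r. Some relay genes that this rule names are not reported here. Library numbers are those of the sample titles. Alternatives included no filter, DESeq2 1.42.0, counts from TPM scaled by length, limma 3.58.1 with PSC line as a random effect, other blocks, leaving out T69A, and leaving out each library.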

Additional observations from a re-analysis of the deposited data

Results flagged for a closer look

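In 40 groups of 4, 7 or 8 libraries (10 genes in 4 groups), 5 values lay further from the rest than Dixon's 95% limit, which chance alone exceeds in about 1 group in 20. Ereg in organoids with WT PSCs was highest in library 10, T12-LOH, at 117.7 CPM, with the nearest other library at 59.1. Nrg1 in the same library was 9.05 CPM, with the nearest at 0.136. Ereg in WT PSCs was lowest in library 26, the PSC5 line, at 157 CPM, with the nearest at 454.1. Btc in KO PSCs was highest in library 27, the PSC5 line C5, at 6.12 CPM, with the nearest at 2.00. Adam17 in KO PSCs was highest in library 19, B4 with T69A, at 198.5 CPM, with the nearest at 142.6. Library 10 is the 1 T12-LOH library and library 26 the 1 PSC5 library of its group, so the library and the line cannot be told apart within these groups.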

How the results depend on the processing

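The count of genes called over the whole table moved more than the members did. KO against WT PSCs called 14 genes, against 23 with no filter, 613 with DESeq2, 9 with length-scaled TPM counts, 0 with PSC line as a random effect (correlation 0.714), 0 without T69A, 4 with no co-culture block and 0 to 51 without each library. In organoids the count was 1351, against 743 with length-scaled TPM counts, 418 without T69A, 0 with no co-culture block and 203 to 1832 without each library. The interaction called 90, against 54 with no filter, 622 with DESeq2, 44 with length-scaled TPM counts, 30 with a culture block and 15 to 340 without each library. B4 against A3 called 6206, and 3761 to 4877 without each library. PSC5 against PSC4 called 2, against 47 with no filter, 606 with DESeq2 and 0 to 3 without each library. PSC4 lines with T12-LOH against T6-LOH called 2504, against 41 with no PSC line block and 902 to 2622 without each library. With T69A against T6-LOH the count was 594, against 1124 with DESeq2, 283 with length-scaled TPM counts, 0 with no PSC line block and 1 to 856 without each library. The cause of these changes was not tested. Leaving out libraries also lowers the number of samples. Without each culture the fractions gave 11577 to 11830 calls, and without each library T12-LOH against T6-LOH organoids gave 7831 to 9164 and T69A against T6-LOH organoids 5572 to 7694. The Egfr difference ran from -1.354 to -1.077 without each co-culture (p = 0.0741 each, exact permutation test), an alternative added after seeing the data, as was the culture block. Among results for single genes no called value changed sign, 17 settings lost a call and 24 gained one. No replicate number is shared between the groups, and libraries were paired by culture or co-culture instead. With 2 to 13 residual degrees of freedom and few reads for Epgn, Egf, Nrg2 and, in PSCs, Areg, Tgfa and Btc, small differences in these genes were not detectable.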
